A study of Bos taurus with 39 samples.

Results

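The comparison covered 6 of the 39 bovine oocyte miRNA libraries: 3 of the CBX group and 3 of the denuded oocyte (DO) group, all collected after 1 h of in vitro maturation. The libraries were chosen by their titles, and each CBX library was paired with the DO library of the same replicate number. CBX oocytes were matured inside their cumulus-oocyte complexes (COCs) in medium with carbenoxolone, a drug that closes gap junctions. Their cumulus cells were then removed by vortexing in hyaluronidase. DO were stripped of cumulus before culture and were matured alone and without the drug, and the study's methods describe a short pronase treatment of denuded oocytes to remove the zona. Both groups came from abattoir ovaries, and the study took the 1 h time point as the germinal vesicle stage. Each library pooled oocytes, so single oocytes were not measured. The CBX group thus differed from the DO group in the drug, in the presence of cumulus cells during culture and in handling, and these cannot be told apart. A control group matured in COCs without the drug and a co-culture group, in which denuded oocytes shared medium with COCs, were also sequenced and serve here as reference levels.

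Gap junctions join the oocyte to the innermost cumulus cells, whose projections cross the zona pellucida. They pass ions, nucleotides and second messengers such as cAMP and cGMP, which hold the oocyte in meiotic arrest. A mature miRNA binds its target mRNA mainly through the seed, bases 2 to 8 from its 5′ end, and lowers the stability or translation of that mRNA. A fully grown oocyte transcribes little and relies on stored RNA until the genome of the embryo is switched on.

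Known miRNAs are those of miRBase (bta-miR names), and predicted miRNAs are those the study called from its own reads. Of the predicted miRNAs past the threshold at 1 h, a mature sequence was at hand for predicted miR-559 and predicted miR-318-0. Predicted miR-895 is shown with them because it was called at 22 h in the same pair of groups. The sequences are from the supplementary table of the study, 5′ to 3′, with the seed in capitals.

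predicted miR-559: gGCGCGCCcccgccgcgc

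predicted miR-318-0: gCGCGCCCccgccgcgcg

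predicted miR-895: gCGCCCCCggggccgcgg

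Each is 18 bases long, and 18 of the 18 bases are G or C. Bases 2 to 18 of predicted miR-559 are the first 17 bases of predicted miR-318-0, a shared run of 17 bases shifted by 1 position. Because of that shift the seeds of both differ by position, and none of the 3 sequences share a seed. The longest run that predicted miR-895 shares with either of the others is 9 bases. How reads that could belong to both predicted miR-559 and predicted miR-318-0 were assigned is not given in the sources used here, so their counts may not be independent.

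The 6 libraries held between 29926 and 107952 miRNA counts (median 74047.5), with each profile of identical counts counted once. CBX libraries averaged 80719.7 ± 32283 counts and DO libraries 59340.3 ± 25478 (SD, n = 3 each). The total was lower in DO in 3 of 3 pairs, but the groups overlapped (exact two-sided permutation p = 0.4). DO library 2 was the shallowest, and its miRNA counts made up 0.366% of its deduplicated reads against up to 1.17% in the other libraries. In the deepest and the shallowest library, 3 counts were worth 27.8 and 100.2 CPM, counts scaled to a library total of 1000000, a limit that covers counting error only. Levels are CPM normalised by the trimmed mean of M-values (TMM) over the 36 libraries at 1, 6 and 22 h. Libraries of one group differed from each other by 6.66 to 14.2 times the variance that counting alone gives (chi-square per degree of freedom), so no library was a copy of another.

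A count was found for 1036 distinct miRNAs in these libraries, of which 359 were known and 677 predicted. Of these, 893 had a count in both groups and 576 in all 6 libraries. Another 100 had counts only in CBX oocytes and 43 only in DO, with no more than 14 and 4 counts in total, respectively. These were too few counts to tell an absent miRNA from a rare one. After the low-count filter, 388 miRNAs were compared, 121 known and 267 predicted.

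After 1 h, 8 of the 388 miRNAs (2.06%) differed between DO and CBX oocytes at an adjusted p-value under 0.05 and a change of 1 or more on the log2 scale in either direction. In DO 6 were lower, namely predicted miR-835, predicted miR-559, predicted miR-318-0, predicted miR-319, bta-miR-206 and bta-miR-155. The other 2, predicted miR-515 and predicted miR-399, were higher. The direction was the same in all 3 pairs for 4 of the 8 miRNAs, against 95 of all 388 (24.5%), and for 3 of the 8 the groups did not overlap, against 30 of all 388 (7.73%). At an unadjusted p under 0.05 there were 12 miRNAs higher in DO (3.09%) and 15 lower (3.87%). The median log2 fold change over all 388 was 0.0067, with quartiles at -0.24 and 0.25. All folds are DO over CBX from edgeR's quasi-likelihood test, blocked by replicate number, with Benjamini-Hochberg adjusted p-values.

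The number of calls rested on all 3 pairs and on the block. Leaving out replicate 1, 2 or 3 left 1, 0 and 0 calls, the fit without the replicate block gave 0 (12 at an unadjusted p under 0.05), and DESeq2 gave 2.

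**Figure D1:**
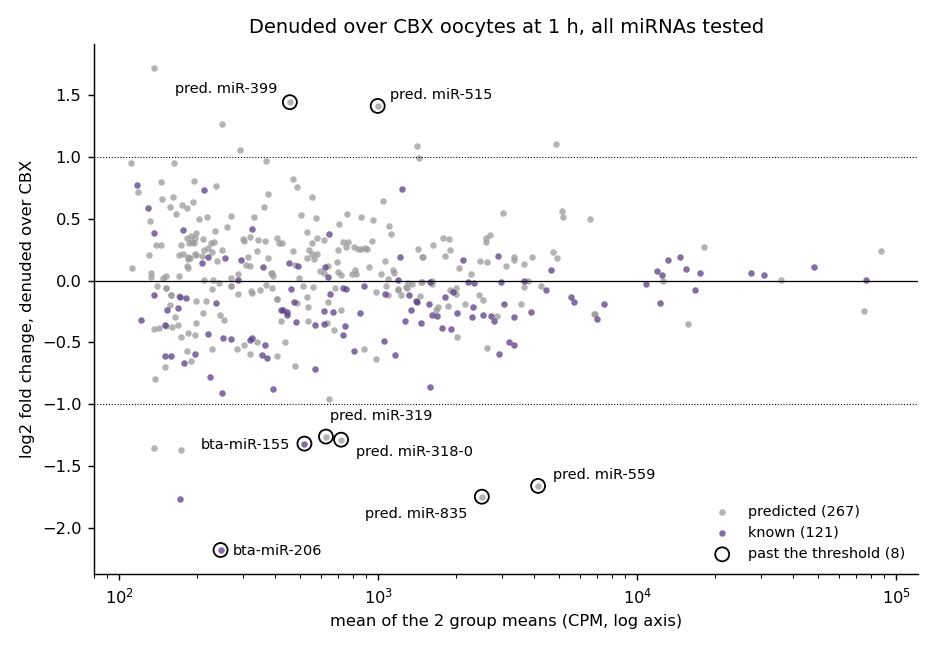
Log2 fold change of DO over CBX (y axis) against the mean of both group means in CPM (x axis, log scale) for the 388 miRNAs tested, with known miRNAs in purple, predicted ones in grey and the 8 past the threshold circled. Of the 8, 6 lie below -1 and 2 above 1, while the most abundant miRNAs on the right lie near 0.

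The lower group held 4 predicted miRNAs of like behaviour. Predicted miR-559 was the most abundant of them, with 10341, 3552 and 4847 CPM in CBX replicates 1, 2 and 3 and 2029, 627 and 3459 CPM in the DO replicates. All CBX values were above all DO values, although CBX replicate 2 and DO replicate 3 were close to each other. The means were 6247 ± 3604 CPM in CBX and 2038 ± 1416 CPM in DO (SD, n = 3), and the fall was 5.10-fold, 5.67-fold and 1.40-fold in the 3 pairs. Predicted miR-559 fell by 1.66 on the log2 scale (SE 0.36, adjusted p = 0.000707), and the exact permutation p was 0.1, the smallest that 3 against 3 libraries can give. Leaving out single libraries in fits with no block gave log2 fold changes from -2.17 without DO replicate 3 to -0.99 without CBX replicate 1, where the value with all 6 libraries was -1.53. Predicted miR-559 and predicted miR-560 carry identical counts in all libraries and were counted as 1 miRNA.

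Predicted miR-835 followed the same course at a lower level. It measured 6576, 2272 and 2821 CPM in the CBX replicates and 1344, 345 and 1716 CPM in the DO replicates. Again the groups did not overlap, and DO replicate 2, with 11 counts, was the lowest of the 6. It fell by 1.75 on the log2 scale (SE 0.37, adjusted p = 0.000707). Pair 3 showed the smallest difference, 1.64-fold against 4.89-fold and 6.59-fold in pairs 1 and 2. CBX replicate 1 was the highest of the 6, and without that library the log2 fold change of predicted miR-835 in a fit with no block was -1.09 (-2.12 without DO replicate 3).

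Predicted miR-318-0 had 1712, 537 and 896 CPM in CBX oocytes and 391, 313 and 462 CPM in DO. Its DO values lay within a narrow range, all below the lowest CBX value. It fell by 1.29 on the log2 scale (SE 0.37, adjusted p = 0.031). Predicted miR-319 measured 1552, 372 and 817 CPM in CBX and 354, 251 and 422 CPM in DO. Here DO replicate 3 was above CBX replicate 2, so the groups overlapped, but each DO library was below the CBX library of its own pair. It fell by 1.26 on the log2 scale (SE 0.37, adjusted p = 0.033). Both were highest in CBX replicate 1, and without that library the log2 fold changes, with no block, were -0.82 for predicted miR-318-0 and -0.73 for predicted miR-319.

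These 4 miRNAs also varied together in the 33 libraries outside the comparison. Over those libraries, Pearson's r of log2 CPM was 0.99 between predicted miR-559 and predicted miR-835 (Spearman's rho 0.99) and 1.00 between predicted miR-318-0 and predicted miR-319 (rho 0.99). Between the pairs r ran from 0.90 to 0.93, as between predicted miR-559 and predicted miR-318-0 (r 0.90, rho 0.85). These are descriptions over libraries that share groups, times and depth, and the miRNAs may share reads. The next most alike miRNA to predicted miR-559, bta-miR-105a (r 0.83), named only for this likeness, had a log2 fold change of only -0.19 at 1 h. The 4 calls may therefore stand for fewer than 4 separate measurements.

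**Figure D2:**
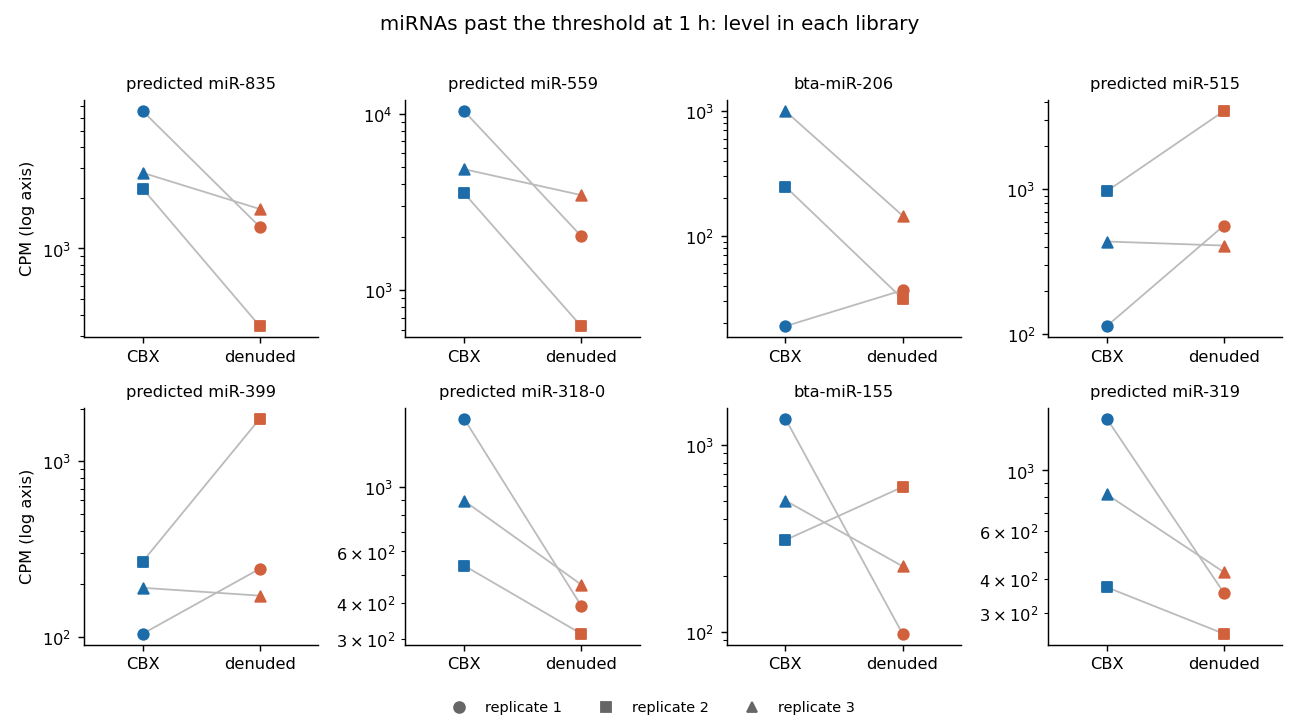
CPM (y axis, log scale, a scale of its own in each panel) of the 8 miRNAs past the threshold in the CBX and DO libraries, with a marker shape for each replicate number and a line joining each pair. Lines of predicted miR-835, predicted miR-559, predicted miR-318-0 and predicted miR-319 all run downwards, whereas in the other 4 panels 1 line runs against the rest.

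Both known miRNAs past the threshold were lower in DO. Bta-miR-206, a miRNA characteristic of skeletal muscle, had the largest fall of the 8 and the fewest counts. It was counted 2, 12 and 89 times in the CBX replicates and 3, 1 and 11 times in the DO replicates. In CPM this was 18.9, 248 and 996 against 36.7, 31.3 and 145. CBX replicate 3 held most of the counts, and in pair 1 the DO value was the higher of 2 values at or below the floor of 3 counts. The log2 fold change was -2.18 (SE 0.55, adjusted p = 0.0097), with an exact permutation p of 0.4. In fits with no block it was -0.63 without CBX replicate 3 and -3.49 without DO replicate 3. Levels of bta-miR-206 were as uneven in the reference groups at 1 h, with 37.5, 5189.8 and 0 CPM in control oocytes and 27.9, 79.2 and 1377 CPM in co-cultured DO.

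Bta-miR-155, known from activated immune cells and also described in granulosa cells, had 1381, 309.8 and 504 CPM in CBX oocytes. In DO it had 97.8, 595 and 224 CPM. The fold rested on pair 1, in which CBX was 14.1-fold higher, whereas in pair 2 the DO library was 1.92-fold higher. It was called lower in DO (log2 fold change -1.32, SE 0.39, adjusted p = 0.033), and without replicate 1 the log2 fold change was -0.13. With no block it was -0.47 without CBX replicate 1 alone and -2.20 without DO replicate 2.

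For the 2 miRNAs called higher in DO, the shallowest library held the highest level. Predicted miR-515 measured 114, 971 and 437 CPM in CBX and 562, 3479 and 409 CPM in DO. It was 4.95-fold and 3.58-fold higher in DO in pairs 1 and 2 and 0.937-fold the CBX level in pair 3. Its log2 fold change was 1.41 (SE 0.38, adjusted p = 0.017). Predicted miR-399 had 104, 268 and 190 CPM in CBX and 244, 1755 and 172 CPM in DO (log2 fold change 1.44, SE 0.39, adjusted p = 0.017). DO replicate 2 was the highest of the 6 libraries for both, with the other DO libraries inside the range of the CBX libraries. Without that library, in a fit that had no block, the log2 fold changes were -0.0015 for predicted miR-515 and 0.21 for predicted miR-399. The highest values of such fits were 2.53 for predicted miR-515, without CBX replicate 2, and 2.48 for predicted miR-399, without DO replicate 1. Over the 33 other libraries these 2 miRNAs were also alike (r 0.91, rho 0.92).

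DO replicate 2 and CBX replicate 1 were the libraries most often at the edge of these differences. Of the 12 miRNAs higher in DO at an unadjusted p under 0.05, 10 had their highest value in DO replicate 2, against 65 of the 198 with a log2 fold change above 0 (32.8%) and 78 of all 388 miRNAs. Of the 15 lower in DO, 11 had their lowest value in DO replicate 2, against 95 of the 190 with a log2 fold change below 0 and 124 of all 388. CBX replicate 1 held the highest value in 11 of these 15, against 83 of the 190 (43.7%) and 97 of all 388. Because the miRNAs were picked by the size and direction of their change, an extreme library on that side is in part given by the choice. Pair 3 went the opposite way in 8 of the 12 higher miRNAs (91 of the 198) and in 1 of the 15 lower ones (57 of the 190), against 148 of all 388. The part that the depth of DO replicate 2 or the level in CBX replicate 1 plays in these differences was not tested. In the main fit the estimated prior degrees of freedom of the quasi-likelihood test were infinite, so each miRNA was judged by the spread common to miRNAs of its level and not by its own. Without the block they were 5.56.

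Below the threshold, several known miRNAs were lower in DO in all 3 pairs. Bta-miR-99b, of the family of miR-99 and miR-100, had 416, 206 and 190.3 CPM in CBX and 48.9, 31.3 and 132 CPM in DO. The groups did not overlap, but the counts in DO were only 4, 1 and 10 (log2 fold change -1.77, SE 0.59, adjusted p = 0.12). Bta-miR-497, which shares its seed with miR-15 and miR-16, measured 747, 413 and 403 CPM in CBX against 367, 157 and 264 CPM in DO. Bta-miR-335, encoded in an intron of the imprinted gene MEST, measured 2772, 1983 and 1500 CPM against 941, 877 and 1399 CPM. Every DO value of both was below every CBX value (log2 fold changes -0.87, SE 0.37, and -0.86, SE 0.36), with an adjusted p of 0.39 for each. Bta-miR-532 was also lower in each DO library (log2 fold change -0.91, SE 0.43, adjusted p = 0.60). For bta-miR-186 the log2 fold change was -0.71 (SE 0.35, adjusted p = 0.67), with pair 3 level. Bta-miR-128, best known from neurons, was the one known miRNA on the higher side, at 918, 620 and 1377 CPM in CBX and 1638, 1222 and 1637 CPM in DO. The groups overlapped, and its adjusted p was 0.62 (log2 fold change 0.74, SE 0.36).

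Among predicted miRNAs short of the threshold, predicted miR-838 came nearest. It measured 918, 5742 and 2452 CPM in CBX and 3593, 14478 and 2020 CPM in DO (log2 fold change 1.102, SE 0.34, adjusted p = 0.057). Predicted miR-2, predicted miR-867, predicted miR-39, predicted miR-15 and predicted miR-440 had log2 fold changes from 0.83 to 1.27. Like predicted miR-838, all 5 had their highest level in DO replicate 2. Without that library, in a fit with no block, the log2 fold change of predicted miR-39 was 0.0019. For predicted miR-838, predicted miR-2, predicted miR-867, predicted miR-15 and predicted miR-440 it was negative there, from -0.57 to -0.11. Predicted miR-773 also peaked in DO replicate 2, but it was higher in DO in 3 of 3 pairs with no overlap: 293, 248 and 213 CPM in CBX and 464, 627 and 370 CPM in DO. Its adjusted p was 0.22 (log2 fold change 0.97, SE 0.36). Predicted miR-620 was close to level in pair 3 (log2 fold change 0.76, SE 0.35, adjusted p = 0.57). On the lower side were predicted miR-746 (log2 fold change -0.96, SE 0.35, adjusted p = 0.21), predicted miR-497 (-1.37, SE 0.58, adjusted p = 0.39) and predicted miR-803 (-1.36, SE 0.67, adjusted p = 0.67). Each of these 3 was lower in DO in all 3 pairs, and predicted miR-803 had 0 counts in DO replicate 2.

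**Figure D3:**
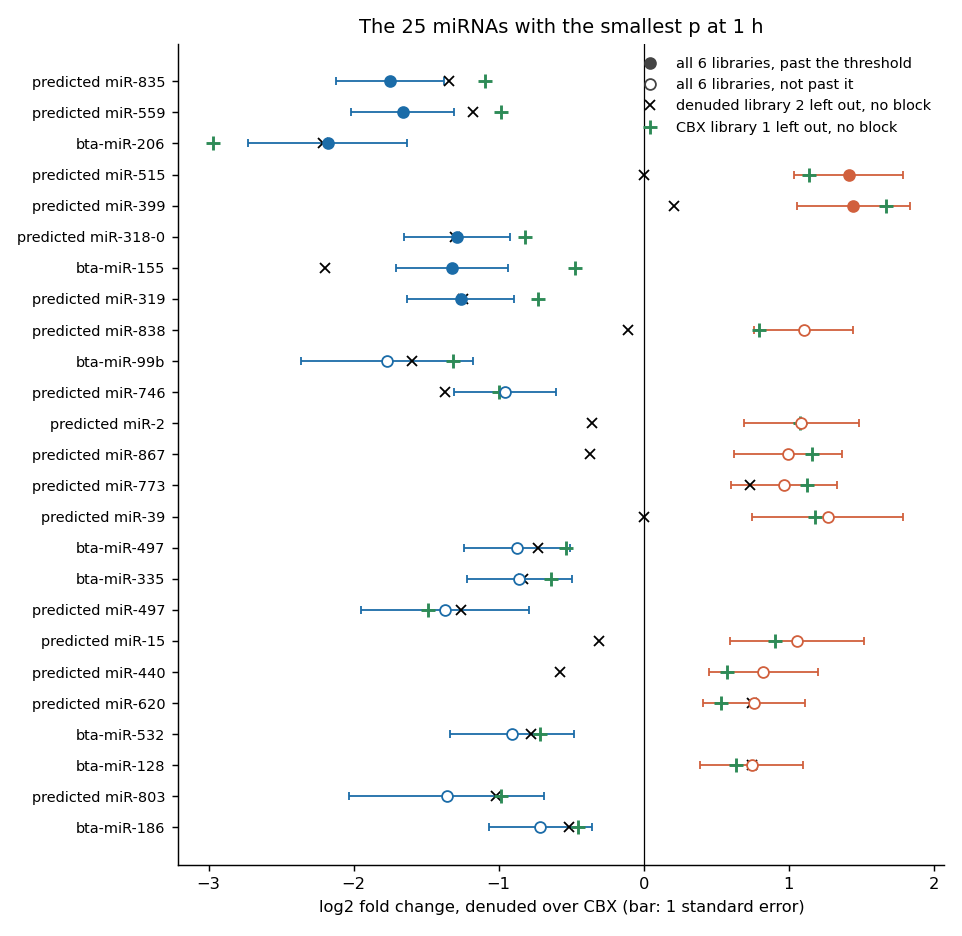
Log2 fold change of DO over CBX with 1 standard error for the 25 miRNAs with the smallest p, filled where past the threshold, and the fold after DO replicate 2 (crosses) or CBX replicate 1 (plus signs) was left out of a fit with no block. For 6 of 11 miRNAs on the higher side, predicted miR-515 among them, the cross falls below 0. On the lower side no cross or plus sign passes 0, but 11 of 14 plus signs, that of bta-miR-155 at -0.47 among them, and 10 of 14 crosses lie nearer to 0 than the fold from all 6 libraries. That fold is from the fit with the block, so the counts mix the loss of a library with the loss of the block.

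Known and predicted miRNAs leaned to different sides. The median log2 fold change was -0.19 among the 121 known miRNAs, of which 87 (71.9%) were below 0. Among the 267 predicted ones it was 0.11, with 103 (38.6%) below 0. This lean depends on scaling. When known and predicted miRNAs were normalised apart from each other, 70 of 120 known miRNAs were below 0, and with the totals of deduplicated reads as library sizes the median of all miRNAs moved to -0.37. The counts of each family below 0 are thus to be read against the 71.9% of all known miRNAs.

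The most abundant known miRNAs did not pass the test. Bta-miR-16b, the highest, averaged 78502 ± 3191 CPM in CBX and 74903 ± 9122 CPM in DO (SD, n = 3), with a log2 fold change of 0.01 (SE 0.18). Bta-miR-10b, a miRNA of the Hox clusters, averaged 47859 ± 8802 and 48606 ± 5586 CPM (log2 fold change 0.11, SE 0.20). Bta-miR-148a averaged 31928 ± 12563 and 29727 ± 5685 CPM, a difference within the spread of either group. Bta-let-7a-5p, of the family named for developmental timing, was at 27428 ± 5537 and 27424 ± 8398 CPM. For the 10 most abundant known miRNAs, which also include bta-let-7f, bta-let-7i, bta-miR-16a, bta-miR-122, bta-miR-9-5p and bta-miR-26a, the log2 fold changes lay between -0.07 and 0.19. Bta-miR-21-5p, a miRNA of cumulus and granulosa cells that was singled out after its values had been seen, measured 7238, 3160.0 and 3996 CPM in CBX and 4448, 4356 and 3525 CPM in DO. The DO values all lay within the CBX range (log2 fold change -0.07, SE 0.33, adjusted p = 0.99).

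Among groups of related miRNAs with more than 1 member tested, the list of the miR-17-92 and miR-106b-25 clusters, linked to cell proliferation, had the lowest median. That list also holds bta-miR-20b, a related miRNA from outside both clusters. The muscle group, with 1 tested member, bta-miR-206, is outside this ranking. All 9 tested members of the list of the miR-17-92 and miR-106b-25 clusters had a negative log2 fold change. They ran from -0.61, that of bta-miR-20b, to -0.02 with a median of -0.46. However, 0 of these 9 passed even an unadjusted p under 0.05. Among bta-miR-20a, bta-miR-19b and bta-miR-17-5p, the first had the highest level. It had 5109, 3780 and 3190.3 CPM in CBX and 3287, 1974 and 2693 CPM in DO, which overlap. Bta-miR-19b (log2 fold change -0.60, SE 0.36) and bta-miR-17-5p (-0.52, SE 0.37) were similar. The summed level of the 14 members with a count ran from 27672 to 31837 CPM in CBX and from 23733 to 24350 CPM in DO, without overlap. When known miRNAs were normalised apart, or with upper-quartile factors, 8 of the 9 stayed below 0, with medians of -0.34 and -0.41. The summed level was not computed under these scalings, so whether its groups stay apart there is not known.

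The let-7 family had 5 of 8 members below 0 (median -0.28), led by bta-let-7b (log2 fold change -0.50, SE 0.39), whose levels of 7029.6, 1611 and 2933 CPM in CBX and 1002, 4419 and 2244 CPM in DO overlapped widely. In the miR-30 family 3 of 5 were below 0 (median -0.13), and in the miR-10, miR-99, miR-100 and miR-125 families 4 of 6 (median -0.32), where bta-miR-99b alone had an unadjusted p under 0.05. The miR-15, miR-16 and miR-195 family had 7 of 8 below 0 (median -0.21), of which only bta-miR-497 had such a p. When known miRNAs were normalised apart, 5 of these 8 were below 0 (median -0.10). Medians near 0 were found for the miR-26 and miR-29 families (0.02, 4 tested) and for the miR-148, miR-152 and miR-200 families (-0.01, 6 tested). The miR-23, miR-24 and miR-27 clusters had a median of -0.17 over 5 members. For the ruminant miR-2284 and miR-2285 family, 116 of 148 members had no count and 2 could be tested (median -0.15).

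**Figure D4:**
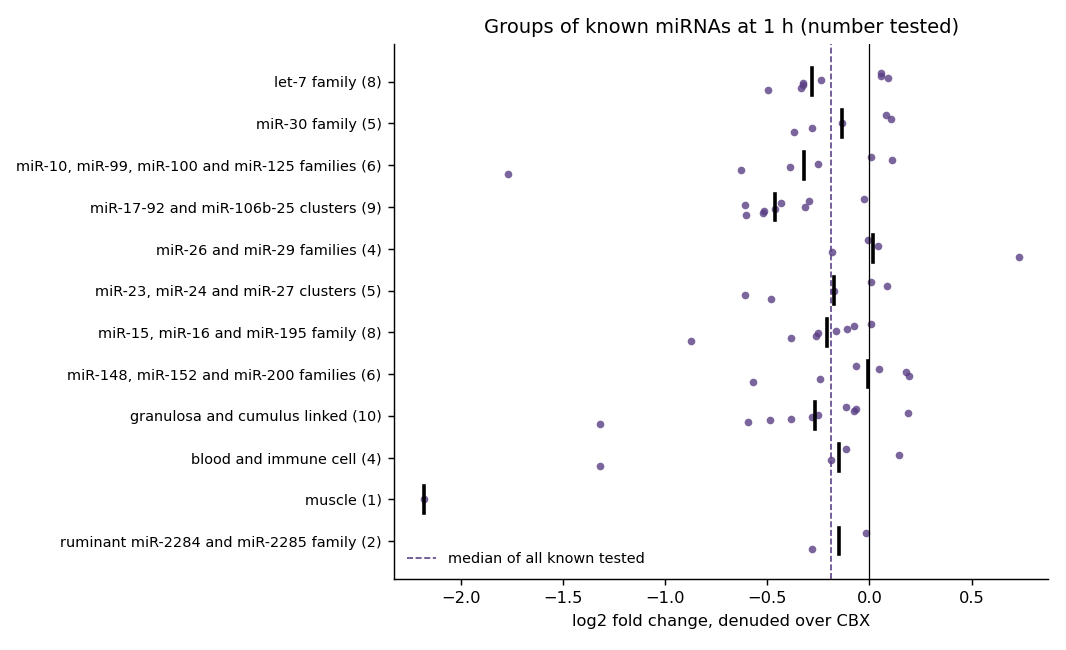
Log2 fold change of DO over CBX for each tested member of 12 groups of known miRNAs (points), with the median of each group (black bar) and of all known miRNAs tested (dashed line). Most groups lie near the dashed line at -0.19, and the median of the list of the miR-17-92 and miR-106b-25 clusters lies to its left. Only bta-miR-206, bta-miR-99b and bta-miR-155 lie below -1.

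Markers of other cells were followed because cumulus cells left on an oocyte would add their own miRNAs. In these pooled libraries, fewer remaining cumulus cells and less of a miRNA in each oocyte cannot be told apart. Of 17 miRNAs linked to granulosa and cumulus cells, 15 had a count and 10 were tested. The summed level of the list ran from 10471 to 21212 CPM in CBX and from 10284 to 11188 CPM in DO, so the groups overlapped at the low end. Their median log2 fold change was -0.27 and 9 of 10 were below 0 (6 of 10 when known miRNAs were normalised apart), with 1 call, bta-miR-155. Bta-miR-31 had 6689, 1859 and 2709 CPM in CBX and 2469, 1504 and 2310 CPM in DO (log2 fold change -0.60, SE 0.35). As with bta-miR-155, CBX replicate 1 stood highest, and the part of cumulus RNA in its level was not tested. For bta-miR-202 the log2 fold change was -0.49 (SE 0.36).

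Of 10 blood and immune cell miRNAs 4 were tested, with a median log2 fold change of -0.15. The list had 1 call, bta-miR-155, which is also the call of the granulosa and cumulus list. Bta-miR-142-3p, bta-miR-142-5p and bta-miR-144 had 0 counts in all 6 libraries. Bta-miR-146a was at 2223, 1446 and 1489 CPM in CBX and at 1833, 1097 and 1360 CPM in DO, which overlap. Of 8 muscle miRNAs, bta-miR-133b, bta-miR-133c, bta-miR-208a and bta-miR-208b had no count, and only bta-miR-206 had enough counts to be tested. The summed level of the muscle list ran from 47.3 to 1052 CPM in CBX and from 97.8 to 211 CPM in DO.

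In the other groups at 1 h, the means of the 4 predicted miRNAs that were lower in DO lay between those of CBX oocytes and DO. Predicted miR-559 averaged 4978 ± 3300 CPM in control oocytes and 4663 ± 1531 CPM in co-cultured DO (SD, n = 3). Control replicate 3, at 1343 CPM, was nevertheless below 2 of the 3 DO libraries. Predicted miR-835 averaged 3087 ± 2284 CPM in control and 3031 ± 1248 CPM in co-cultured oocytes. Bta-miR-155 was at 336 ± 167 and 247 ± 191 CPM there, close to the 306 ± 259 CPM of the DO group and below the 732 ± 571 CPM of CBX oocytes. Predicted miR-515 averaged 408 ± 268 CPM in control and 669 ± 171 CPM in co-cultured oocytes, against 507 ± 433 CPM in CBX and 1483 ± 1730 CPM in DO. These levels were not tested against either group.

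The same pair of groups at 6 and 22 h, in libraries of their own, shows whether the difference at 1 h lasted. At 6 h, 7 of 353 miRNAs (1.98%) were called, all lower in DO. Of these, 3 were also among the 8 calls at 1 h: predicted miR-318-0 (log2 fold change -1.07, adjusted p = 0.012), predicted miR-319 (-1.12, adjusted p = 0.011) and bta-miR-155 (-1.10, adjusted p = 0.013). Bta-miR-155 had 944, 1160 and 3773 CPM in CBX and 1195, 620 and 520 CPM in DO at 6 h. Its groups overlapped, pair 1 went the other way and CBX replicate 3 was by far the highest, whereas at 1 h its fold rested on pair 1. Predicted miR-559 and predicted miR-835 had log2 fold changes of -0.43 and -0.54 at 6 h, with adjusted p-values of 0.65 and 0.45. A test of the change in fold from 1 to 6 h called 0 of 424 miRNAs by edgeR and by DESeq2, with 15 at an unadjusted p under 0.05 by edgeR. The folds at 1 and 6 h were thus not shown to differ for any miRNA.

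At 22 h the order of the groups was the opposite for predicted miR-559 and predicted miR-835. Predicted miR-559 had 3673, 676 and 5924 CPM in CBX and 15144, 12158 and 19777 CPM in DO, so that every DO library was higher (log2 fold change 2.40, SE 0.38, adjusted p = 0.022). Predicted miR-835 had 2315, 468 and 3584 CPM in CBX and 9302, 7234 and 10119.9 CPM in DO (log2 fold change 2.22, SE 0.37, adjusted p = 0.022). Predicted miR-895 was the other of the 3 calls among 356 miRNAs at 22 h (0.843%), at 25.2, 52.0 and 79.3 CPM in CBX and 294, 993 and 908 CPM in DO (log2 fold change 3.56, SE 0.49, adjusted p = 0.014). CBX libraries held only 2, 1 and 6 counts of it.

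The change in fold itself was tested in 1 fit over both times. Of 435 miRNAs 3 were called (0.69%), the same 3. The fold at 1 h minus that at 22 h was -4.18 on the log2 scale for predicted miR-559 (SE 0.68), -4.08 for predicted miR-835 (SE 0.65) and -4.28 for predicted miR-895 (SE 0.71), with an adjusted p of 0.014 for each. At 1 h predicted miR-895 had 341, 207 and 134 CPM in CBX and 85.5, 251 and 119 CPM in DO, with a log2 fold change of -0.65. Between 1 and 22 h predicted miR-559 went from a mean of 2038 to 15693 CPM in DO and from 6247 to 3425 CPM in CBX. Without replicate 2 the fit called 0 miRNAs and without the replicate block 0, whereas DESeq2 called 3. The log2 fold changes of predicted miR-318-0, predicted miR-319 and bta-miR-155 were 0.42, 0.55 and 0.44 at 22 h. Their change from 1 h did not pass the test (adjusted p = 0.68, 0.68 and 0.88).

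**Figure D5:**
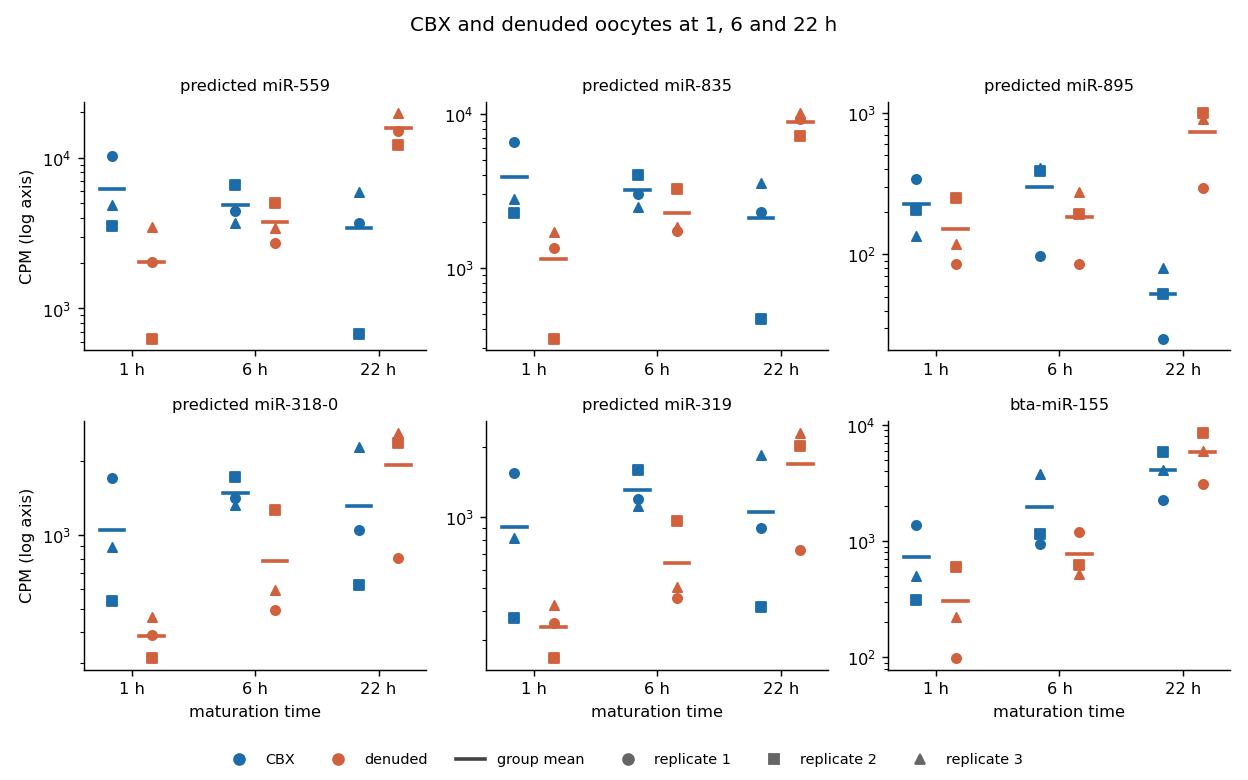
CPM (y axis, log scale, a scale of its own in each panel) of 6 miRNAs in CBX (blue) and DO (orange) libraries at 1, 6 and 22 h, with a marker shape for each replicate number and a bar at the group mean. Predicted miR-559 and predicted miR-835 lie lower in DO at 1 h and higher at 22 h with no overlap at either time, and in both groups bta-miR-155 lies above its 1 h levels at 22 h.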

How the data were processed

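The files hold raw counts for each mature miRNA, which the authors made from QIAseq miRNA libraries after removing duplicates by molecular identifier, aligning to ARS-UCD1.2 and counting on miRBase and predicted miRNAs, and did not normalise. The submitters' notes name FastQC 0.11.9 and UMI-tools 1.1.2. The columns hold 39 libraries, matched to the labels by description number. The 1995 rows (1030 known, 965 predicted) held 498 known and 957 predicted miRNAs with a count, and 364 predicted rows shared identical counts in 141 profiles, each entered once, which left 1232 distinct miRNAs.

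The 6 libraries were fitted with edgeR 4.0.16 in R 4.3.3 (quasi-likelihood F-test with edgeR 3 behaviour, not robust, TMM, filterByExpr at a count of 10 and a total of 15, replicate number as block, Benjamini-Hochberg adjustment over all miRNAs tested). The SE is the size of the log2 fold change divided by the square root of F. Replicate numbers from the labels stand for the ovary pools that the study's methods enter as batch, a link the labels do not state. Deviations from the group mean correlated at r 0.12, 0.38 and 0.31 for same-numbered libraries (388 miRNAs). For libraries of unlike number r ran from -0.42 to 0.22. CBX replicate 1 was more like DO replicate 3 (r 0.22) than DO replicate 1, so these values do not bear out pair 1. Centring on groups of 3 libraries also ties these correlations to each other. If the pools were not separate animals, the p-values measure only the spread between these samples. The change of the fold with time was tested over 12 libraries, with the replicate number within each time as block. DESeq2 1.42.0 was an alternative. Only the blocked fits at 1 h and of the change from 1 to 22 h were tried on simulated data, by edgeR, its robust option and DESeq2. Exact two-sided permutation tests compared 3 with 3 values.

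The text names the miRNAs past the threshold, the 25 with the smallest p, bta-miR-206 and predicted miR-559, the 10 most abundant known miRNAs, the calls at other times and the 3 smallest p of each list. Members, lists and tests were chosen with earlier results of these data known. Read totals were taken from the study's read summary for the miRNA share of each library. Alternatives were no replicate block, other size factors, library sizes from deduplicated reads, other low-count filters, all rows as deposited, known and predicted miRNAs apart, only miRNAs of the study's own count table, the robust option, the edgeR 4 fit, all groups in one fit, no fold threshold, and each replicate left out. Leaving out single libraries without the block was added after the data had been seen.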

Additional observations from a re-analysis of the deposited data

Results flagged for a closer look

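In 3 miRNAs the difference between DO and CBX oocytes at 1 h was not that at 22 h, by a test of the change in fold itself. The log2 fold change at 1 h minus that at 22 h was -4.18 for predicted miR-559, -4.08 for predicted miR-835 and -4.28 for predicted miR-895 (edgeR, SE 0.68, 0.65 and 0.71, adjusted p = 0.014 for each). Predicted miR-559 and predicted miR-835 were lower in DO in 3 of 3 pairs at 1 h and had higher levels in every DO library at 22 h. For predicted miR-895 the change lies at 22 h, where CBX libraries had 2, 1 and 6 counts. Its log2 fold change at 1 h was -0.65. Without replicate 2, whose CBX library at 22 h had 13 counts of predicted miR-559, the fit called 0 miRNAs. Groups of 3 libraries are too small for a test of single outlying libraries.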

How the results depend on the processing

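The 8 calls at 1 h were kept at 8 by DESeq2-type (RLE) size factors, by the edgeR 4 fit and without a fold threshold, and were 7 with the robust option (6 shared) and 7 rows with all rows as deposited. There were 0 calls without the replicate block (12 at an unadjusted p under 0.05), 0 with all 4 groups in the fit and 0 with upper-quartile factors. DESeq2 called 2, known and predicted miRNAs treated apart gave 2, a minimum count of 30 gave 3, only the miRNAs of the study's own count table gave 4, library sizes from deduplicated reads gave 4 (3 shared) and no low-count filter gave 5 (3 shared). Predicted miR-835 was not among the miRNAs tested from the study's own count table, so it could not be called there. Leaving out a replicate gave 0 to 1 calls, and leaving out any single library without the block gave 0. Predicted miR-559 was past the threshold in 10 of 13 settings other than left-out replicates and predicted miR-835 in 9 of 12, bta-miR-206 in 7 of 12, predicted miR-515 in 6 of 13, predicted miR-399 in 5 of 12, predicted miR-318-0 in 4 of 13, and bta-miR-155 and predicted miR-319 in 2 of 13 and 2 of 12. The direction of these 8 held in all of those settings. Without DO replicate 2 and without the block, the log2 fold change became -0.0015 for predicted miR-515, -0.11 for predicted miR-838, -0.35 for predicted miR-2, -0.37 for predicted miR-867, -0.31 for predicted miR-15 and -0.57 for predicted miR-440. The cause of these changes was not tested, except that fewer libraries or fewer miRNAs entered some of the fits.

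The 3 calls for the change of fold from 1 to 22 h became 0 without the replicate block and 5 without a low-count filter. With all groups in the fit there was 1, predicted miR-895. Leaving out replicate 1, 2 or 3 gave 3 (2 shared), 0 and 2 calls, and predicted miR-895 was in none of these. The change from 1 to 6 h gave 0 calls in every setting run. Total counts were lower in DO in every setting (log2 ratio -0.44, from -0.55 to -0.30). Depth limits the rest, with 3 counts worth up to 100.2 CPM in the 6 libraries at 1 h. Differences there in miRNAs such as bta-miR-206 or bta-miR-99b rest on 1 to 12 counts in most libraries. At 22 h, CBX replicate 2 held only 17178 miRNA counts, and 3 counts were worth 174.6 CPM in it.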

Other observations

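The 7 miRNAs called lower in DO at 6 h held 4 that were not past the threshold at 1 h. Predicted miR-485 had log2 fold changes of -0.55 at 1 h (SE 0.35, adjusted p = 0.99) and -1.20 at 6 h (SE 0.25, adjusted p = 0.000953). At 1 h it measured 3226, 2830 and 3325 CPM in CBX oocytes and 1418, 1912 and 3036 CPM in DO, with only DO replicate 3 inside the CBX range. Predicted miR-824 was similar, at -0.55 (SE 0.36) and -1.37 (SE 0.30), but its groups overlapped at 1 h. Predicted miR-457 and predicted miR-484 were level at 1 h, at 0.05 (SE 0.34) and -0.05 (SE 0.34), and called at 6 h, at -1.15 (SE 0.32) and -1.36 (SE 0.34). The change of fold from 1 to 6 h did not pass the test for any of them.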
